A study of Homo sapiens with 18 samples.

Results

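Cells of the human glioblastoma line U251 that had been exposed to the solvent DMSO for 18 h were compared with cells exposed to DMSO for 10 h. The 6 arrays of these 2 groups, 3 at each time, were taken by their treatment and time from the 18 arrays of a series in which U251 cells received either DMSO or enzastaurin for 4, 10 or 18 h. The DMSO cells received no enzastaurin, so the comparison shows how the solvent controls themselves changed late in the experiment. All cells grew in RPMI medium with 5% serum, and their total RNA was hybridized to Affymetrix HG-U133 Plus 2.0 arrays. The groups used below are DMSO 18 h, DMSO 10 h, enzastaurin 18 h and enzastaurin 10 h, with the DMSO 4 h arrays given as levels. Enzastaurin, an inhibitor aimed at the beta form of protein kinase C, was given at a dose the labels do not state. The labels do not say that the 3 arrays of a group came from separate cultures, so the spread behind the p-values is that of these arrays alone and may be technical. U251 is 1 established line and its response need not be that of other glioma cells.

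Cells left in the same dish use up glucose, sterol supply and growth factors from their medium while they become denser. Serum and growth factors switch on immediate early genes such as EGR1 within minutes, low membrane cholesterol releases the SREBP factors that drive sterol synthesis genes, and a low intracellular level of glucose phosphates lowers the arrestin gene TXNIP through the factor MondoA. Genes of the extracellular matrix, of DNA replication and of the circadian clock also change with density and with time after feeding. These statements are background; medium composition, cell density and feeding times were not measured here.

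The deposited table gave 1 intensity for each of 54613 probe sets in every array, and values were analysed as log2(intensity + 16). Each gene was represented by its brightest probe set, and the 12376 genes at or above the median level of all probe sets (an intensity of 102.0) were tested. Arrays correlated with their own group at a mean r of 0.980 to 0.985, and no array of the 6 stood apart. Of 19 glial and glioma markers 11 were above the median level, VIM, NES, SOX2, SOX9, CD44, GJA1 and FABP7 among them. GFAP (17.9 in DMSO 18 h and 33.0 in DMSO 10 h, mean intensity) and S100B (15.9 in DMSO 18 h and 7.67 in DMSO 10 h), defining astrocyte markers, lay below it. So did CHI3L1, SLC1A2, AQP4, PROM1, OLIG1 and OLIG2. Of 26 measured markers of other cell types 8 passed the level filter. They were the neuronal genes NEFL, at 24800 in both groups, SYT1 (421 in DMSO 18 h and 359 in DMSO 10 h, mean intensity) and SNAP25 (319 in DMSO 18 h and 293 in DMSO 10 h) and the myelin genes MBP (190 in DMSO 18 h and 169 in DMSO 10 h) and MOG (111 in DMSO 18 h and 91.0 in DMSO 10 h). The leukocyte genes CSF1R (127 in DMSO 18 h and 133 in DMSO 10 h) and CD3E (119 in DMSO 18 h and 99.9 in DMSO 10 h) and the endothelial gene PECAM1 (329 in DMSO 18 h and 314 in DMSO 10 h) also passed. The other 18 were below it, among them the leukocyte gene PTPRC, the endothelial genes CDH5 and VWF, the epithelial genes EPCAM and CDH1 and the liver gene ALB. The summed intensity of these 26 genes was 26000 to 28000 in DMSO 18 h arrays and 25900 to 28900 in DMSO 10 h arrays. Most of that sum is NEFL, so it says little of the other markers. Limma called none of the 8 tested (0 at an unadjusted p under 0.05). In bulk RNA a smaller share of cells and less RNA per cell cannot be told apart.

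Between 10 h and 18 h in DMSO, 658 of 12376 genes (5.32%) changed at an adjusted p under 0.05, with 250 higher (2.02%) and 408 lower (3.30%) at 18 h. Called rises included EGR1, an immediate early transcription factor, INSIG1, a brake on sterol synthesis, and PLAU, the protease urokinase. Called falls included DIRAS3, a growth-restraining small GTPase, SCG2, a secretory granule protein, and PRSS12, the secreted protease neurotrypsin. Most changes were small. Only 39 of the called genes changed at least 2-fold, 23 higher and 16 lower, and 159 changed at least 1.5-fold. The median change over all genes was 0.005 and log2 changes had a median standard error of 0.134. In 653 of the 658 called genes all 3 arrays of 18 h lay beyond all 3 of 10 h, a separation that 26.1% of all tested genes showed (12.1% higher, 14.1% lower). Where a called gene is said below not to overlap, this therefore adds no support to its call. The naming rule also required it of the largest rises and falls, EGR1, INSIG1 and PLAU among them. The test was limma's moderated test with Benjamini-Hochberg adjustment over all tested genes. Leaving out single arrays gave between 294 and 588 calls, with 294 without DMSO 18 h replicate 1, 357 without DMSO 18 h replicate 3, 319 without DMSO 10 h replicate 2 and 382 without DMSO 10 h replicate 1. There were 199 calls (83 higher, 116 lower) that were kept without each of the 6 arrays. The direction split depended on scaling: with each array's median over all probe sets subtracted, the median change moved to -0.10 and the calls became 62 higher and 375 lower. The median probe set was brighter in DMSO 18 h arrays (109.9 to 125.9) than in DMSO 10 h arrays (105.2 to 109.3).

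**Figure D1:**
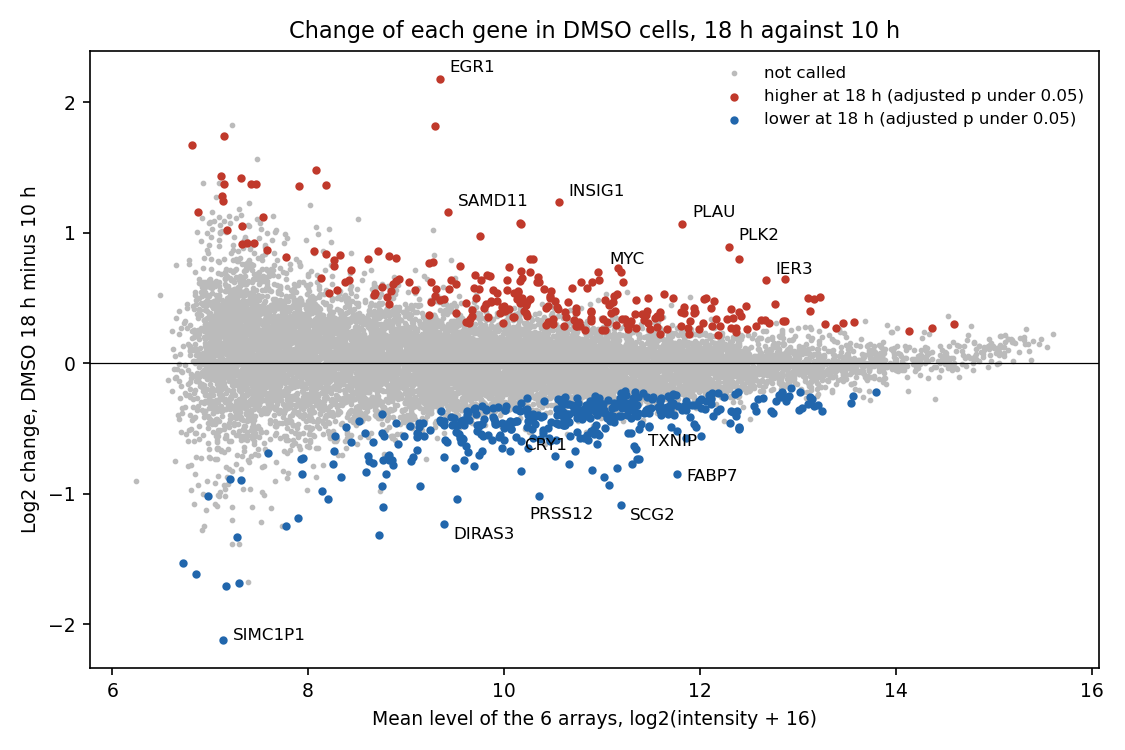
Each point is 1 of the 12376 tested genes, with its mean level over the 6 arrays on the x axis (log2 of intensity + 16) and its log2 change in DMSO, 18 h minus 10 h, on the y axis. Coloured points are the 250 genes called higher and 408 called lower, and the dim genes at the left show the widest scatter.

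EGR1 showed the largest rise. EGR1 intensity was 1111.1, 979.4 and 1049.9 in the DMSO 18 h arrays and 173.7, 252.3 and 236.7 in the DMSO 10 h arrays. All 3 arrays of 18 h were more than 3 times as bright as any of 10 h, while the 4 h mean of 229 ± 42.8 (SD, n = 3) was close to that of 10 h. The log2 change was 2.18 (SE 0.16, adjusted p = 5.88e-08). The other probe sets of EGR1 gave 1.36 (572 in DMSO 18 h and 216 in DMSO 10 h, adjusted p = 0.000429 with every probe set tested on its own) and 0.26 (198 in DMSO 18 h and 163 in DMSO 10 h, adjusted p = 0.682), so the size of the change depended on the probe set. Of the 18 tested immediate early genes 4 rose and 1 fell (27.8% called, against 5.32% of all tested genes). Their median change was 0.12, against 0.005 over all genes. IER3 intensity was 7928.6, 8163.1 and 7646.9 in the DMSO 18 h arrays and 4890.8, 5005.8 and 5377.8 in the DMSO 10 h arrays. This is a log2 change of 0.64 (SE 0.07, adjusted p = 1.75e-05). IER3, a stress- and growth-factor-induced survival gene, was higher in every 18 h array. MYC intensity was 2523.3, 2361.8 and 2412.4 in the DMSO 18 h arrays and 1626.0, 1523.8 and 1511.6 in the DMSO 10 h arrays. MYC thus changed by 0.64 on the log2 scale (SE 0.11, adjusted p = 0.00116). MYC, the growth-promoting transcription factor, likewise showed no overlap between the groups. IER2 rose by 0.43 (adjusted p = 0.0391) and IER5 fell (log2 change -0.24, adjusted p = 0.023). The call was lost without at least 1 single array for IER2 and IER5, with array medians subtracted for IER2, and with the mean over probe sets for IER2. It was also lost with no level filter for IER2, with no intensity trend in limma for IER2 and IER5, and with only the groups compared in the fit for IER5. IER2 has no further probe set, so with the mean over probe sets its log2 change stayed at 0.43 and only its adjusted p moved.

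The upstream sequence of EGR1 is shown because EGR1 had the largest rise and its serum response depends on CArG boxes, the binding sites of serum response factor. It is the 250 bases before the RefSeq start of EGR1, chr5:138465229-138465478 in GRCh38.p14, plus strand, with CArG matches in capitals:
EGR1: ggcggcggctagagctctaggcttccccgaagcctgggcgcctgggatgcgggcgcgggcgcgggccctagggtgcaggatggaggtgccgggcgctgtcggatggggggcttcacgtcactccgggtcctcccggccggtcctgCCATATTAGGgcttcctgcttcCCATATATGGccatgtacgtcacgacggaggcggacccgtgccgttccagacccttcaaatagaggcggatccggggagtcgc
The window held 2 matches, starting 105 and 83 bases before the start. A match on either strand was found in 1.16% of 35116 such promoter windows, and 2 or more in 0.0313%. A match describes letters and does not show binding.

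Genes of the ERK feedback list moved in both directions, with 2 higher and 1 lower of 22 tested and a median of 0.01. This is 13.6% called, against 5.32% of all tested genes. IL11, a cytokine of the interleukin 6 family, fell (log2 change -0.82, adjusted p = 0.00798). IL11 intensity was 1559.3, 1039.8 and 1535.1 in the DMSO 18 h arrays and 2606.6, 2341.9 and 2270.9 in the DMSO 10 h arrays. The groups did not overlap, and DMSO 18 h replicate 2 was the lowest of the 6. ETV1 rose by 0.45 (adjusted p = 0.0314) and PHLDA1 by 0.40 (adjusted p = 0.0344). Calls did not hold without at least 1 single array for ETV1 and PHLDA1, with array medians subtracted for ETV1 and PHLDA1, and with the mean over probe sets for IL11 and ETV1. Further losses came with no level filter or no intensity trend in limma for PHLDA1. Limma called none of 13 Kruppel-like factor genes (1 at an unadjusted p under 0.05), with KLF4 at -0.40 (adjusted p = 0.0566).

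Cytokine and feedback genes of the NF-kB pathway rose where they were called. Of 24 tested members 5 were higher (20.8%, against 2.02% of all tested genes) and none was lower, with a median change of 0.15. The protease gene PLAU was among the 5 and is counted again in the protease list below. NFKBIA encodes the inhibitor that holds NF-kB in the cytoplasm and is itself one of its targets. NFKBIA intensity was 1784.1, 1316.8 and 1555.5 in the DMSO 18 h arrays and 849.8, 883.6 and 899.4 in the DMSO 10 h arrays. On the log2 scale NFKBIA differed by 0.80 (SE 0.14, adjusted p = 0.00219). Every 18 h array was higher, and the mean of 1522 ± 295 (SD, n = 3) at 4 h was near the 18 h level. TNFAIP2 intensity was 2064.8, 2260.8 and 2586.0 in the DMSO 18 h arrays and 1484.7, 1443.4 and 1527.4 in the DMSO 10 h arrays. For TNFAIP2 the fitted log2 change was 0.62 (SE 0.10, adjusted p = 0.000523). TNFAIP2, a TNF-inducible gene, did not overlap between the groups. The cytokine LIF rose by 0.62 (adjusted p = 0.0145) and the chemokine CCL2 by 1.36 (adjusted p = 0.0168), while the chemokine CXCL8 measured 0.69 (adjusted p = 0.0654). An adjusted p under 0.05 was lost without at least 1 single array for LIF and CCL2, with array medians subtracted for LIF, and with the mean over probe sets for NFKBIA and TNFAIP2.

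Urokinase, encoded by PLAU, cleaves plasminogen at the cell surface and helps glioma cells degrade matrix. PLAU intensity was 4542.8, 5104.6 and 4987.9 in the DMSO 18 h arrays and 2228.1, 2283.7 and 2438.8 in the DMSO 10 h arrays. The groups lay far apart, and a mean of 7182 ± 378 (SD, n = 3) at 4 h shows that the 10 h level was the lowest of the 3 times. The log2 change was 1.07 (SE 0.08, adjusted p = 5.88e-08). A further PLAU probe set gave 1.12. PLAT, the tissue-type plasminogen activator, rose by 0.49 (adjusted p = 0.0105), whereas the urokinase receptor PLAUR fell (log2 change -0.35, adjusted p = 0.00776) and so did the metalloprotease ADAM12 (-0.31, adjusted p = 0.0325). Over the 21 tested members of this protease list 2 were higher and 2 lower (19%, against 5.32% of all tested genes), with a median of 0.03. Significance was lost without at least 1 single array for PLAT, PLAUR and ADAM12, with array medians subtracted for PLAT, and with the mean over probe sets for ADAM12. Other losses came with no intensity trend in limma or only the groups compared in the fit for ADAM12.

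**Figure D2:**
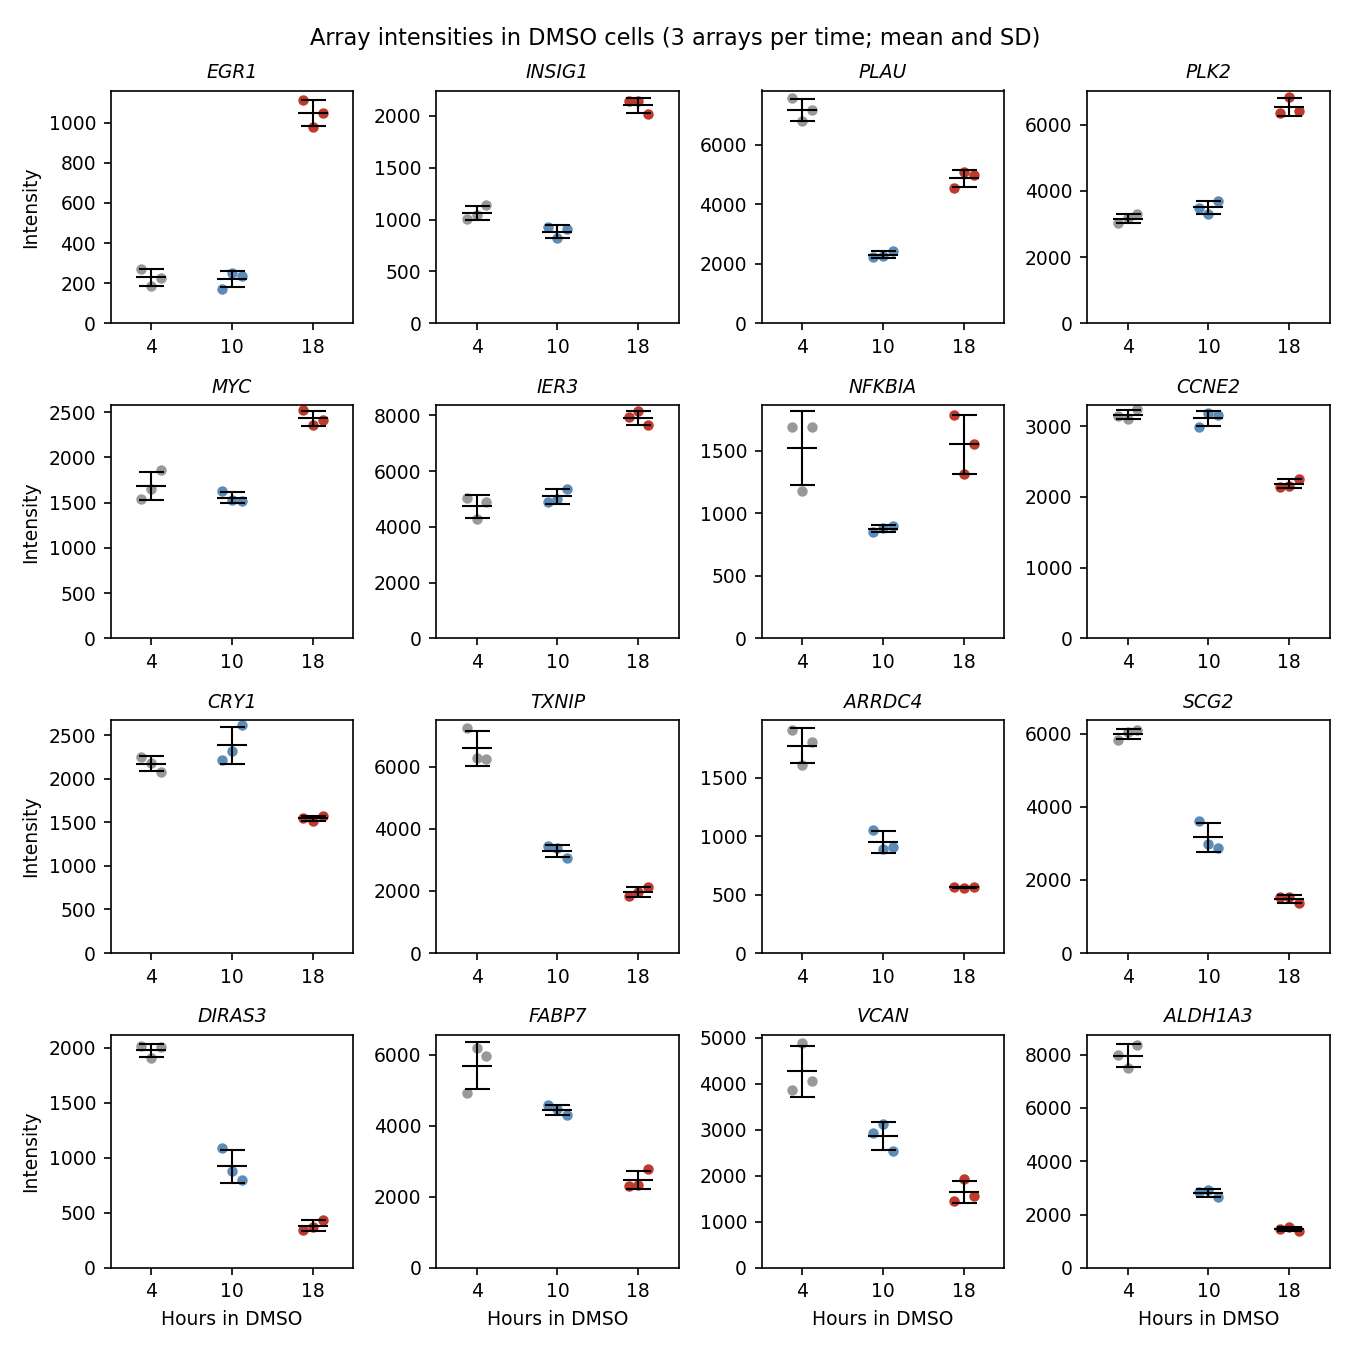
Intensities of 16 genes in the 9 DMSO arrays at 4, 10 and 18 h; each dot is 1 array, the wide mark is the mean and the bars are the SD of 3 arrays. EGR1, INSIG1, PLK2, MYC and IER3 were high at 18 h, PLAU and NFKBIA were lowest at 10 h, and TXNIP, ARRDC4, SCG2, DIRAS3 and ALDH1A3 stood lower at each later time.

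Sterol synthesis genes were higher at 18 h in 5 of 30 tested members (16.7%, against 2.02% of all tested genes). None was lower, and the median change was 0.15. INSIG1 binds SCAP in the endoplasmic reticulum and thereby restrains SREBP, of which it is also a target. INSIG1 intensity was 2140.0, 2144.7 and 2013.9 in the DMSO 18 h arrays and 927.7, 818.3 and 907.8 in the DMSO 10 h arrays. All 18 h arrays were more than 2 times as bright as any 10 h array. This is a log2 change of 1.23 (SE 0.08, adjusted p = 7.49e-09). Its other probe sets gave 1.02 and 1.17. MSMO1 intensity was 1671.7, 1369.8 and 1481.7 in the DMSO 18 h arrays and 810.7, 946.4 and 1004.4 in the DMSO 10 h arrays. MSMO1 thus changed by 0.70 on the log2 scale (SE 0.10, adjusted p = 0.000258). MSMO1, an enzyme of sterol demethylation, was higher in every 18 h array. IDI1, the isopentenyl diphosphate isomerase, rose by 0.70 (adjusted p = 0.000142), the sterol carrier STARD4 by 0.65 (adjusted p = 0.000873) and squalene epoxidase SQLE by 0.50 (adjusted p = 0.000258). The call was lost with the mean over probe sets for IDI1. With array medians subtracted the list again had 5 higher and 0 lower members.

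The arrestin genes TXNIP and ARRDC4, which restrain glucose uptake and are raised by glucose through MondoA, both fell. TXNIP intensity was 1824.9, 1962.4 and 2135.1 in the DMSO 18 h arrays and 3435.2, 3382.3 and 3073.2 in the DMSO 10 h arrays. On the log2 scale TXNIP differed by -0.74 (SE 0.08, adjusted p = 1.04e-05). Its other probe sets gave -0.68 and -0.71. ARRDC4 intensity was 561.2, 556.9 and 567.2 in the DMSO 18 h arrays and 1053.5, 890.3 and 904.8 in the DMSO 10 h arrays. For ARRDC4 the fitted log2 change was -0.74 (SE 0.10, adjusted p = 0.00012). In both genes every 18 h array lay below every 10 h array, and the 4 h means were higher still, 6593 ± 558 for TXNIP and 1773 ± 151 for ARRDC4 (SD, n = 3 each). These were the only calls among the 11 tested members of the arrestin list (18.2%, against 5.32% of all tested genes). The median of the list was 0.01, and both calls were kept in each alternative tried.

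The upstream sequences of both arrestin genes are shown because the genes moved together and because the glucose response is known to run through E-box pairs. Capitals mark the paired letters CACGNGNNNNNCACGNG in TXNIP and the single E-box CACGTG in ARRDC4, searched on both strands in the 250 bases before the RefSeq start in GRCh38.p14. The TXNIP window is chr1:145996580-145996829 on the minus strand, the one of 2 listed TXNIP starts that holds a match, and the ARRDC4 window is chr15:97960453-97960702 on the plus strand:
TXNIP: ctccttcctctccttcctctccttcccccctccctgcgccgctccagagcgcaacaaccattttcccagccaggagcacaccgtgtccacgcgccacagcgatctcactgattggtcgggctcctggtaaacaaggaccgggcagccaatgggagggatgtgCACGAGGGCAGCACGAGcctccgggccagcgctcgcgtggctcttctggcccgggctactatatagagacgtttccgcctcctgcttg
ARRDC4: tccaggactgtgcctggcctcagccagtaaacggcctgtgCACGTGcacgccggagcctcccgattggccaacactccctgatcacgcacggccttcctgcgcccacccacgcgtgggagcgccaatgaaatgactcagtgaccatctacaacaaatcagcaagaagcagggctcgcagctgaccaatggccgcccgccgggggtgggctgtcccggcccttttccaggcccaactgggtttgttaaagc
The TXNIP match starts 88 bases before the start of the gene, and 0.0456% of the 35116 windows held one. Because the TXNIP window was chosen for its match, this share gives that match no weight. The ARRDC4 match starts 210 bases before its start, and 6.34% of the windows held one. The paired letters had 0 matches in the ARRDC4 window and CACGTG had 0 in the TXNIP window, which says only that these letters are not there. The outer letters of the longer pattern can overlap with CACGTG, and the matches are descriptions only.

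Calls among other genes of glucose use and insulin signalling went in both directions. Among 29 glucose uptake and glycolysis genes (6.9% called, against 5.32% of all tested genes), TKT, the pentose phosphate enzyme transketolase, rose by 0.30 (adjusted p = 0.0307) and HK2, hexokinase 2, fell (-0.41, adjusted p = 0.0199), with a median of 0.06. Further dim probe sets of HK2 gave 0.49 and 1.11, and the mean over its probe sets was 0.40 (adjusted p = 0.421). In the insulin and FOXO list 1 of 29 genes rose and 3 fell, a called share of 13.8%. IRS1, an adaptor of the insulin receptor, rose by 0.36 (adjusted p = 0.0338), and the binding proteins IGFBP5 (-0.66, adjusted p = 0.00726) and IGFBP3 (-0.54, adjusted p = 0.0123) and the kinase SGK1 (-0.46, adjusted p = 0.0139) fell. In the hypoxia list 3 of 30 fell (10%): TMEM45A (-0.59, adjusted p = 0.0003), the hormone STC1 (-0.38, adjusted p = 0.00369) and adrenomedullin ADM (-0.30, adjusted p = 0.0236). None rose, and the median was -0.07. Calls did not hold without at least 1 single array for TKT, HK2, IRS1, IGFBP3, SGK1 and ADM, with array medians subtracted for TKT and IRS1, and with the mean over probe sets for IRS1, IGFBP5 and IGFBP3. More were lost with quantile normalization, no level filter or no intensity trend in limma for TKT, and with only the groups compared in the fit for HK2.

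**Figure D3:**
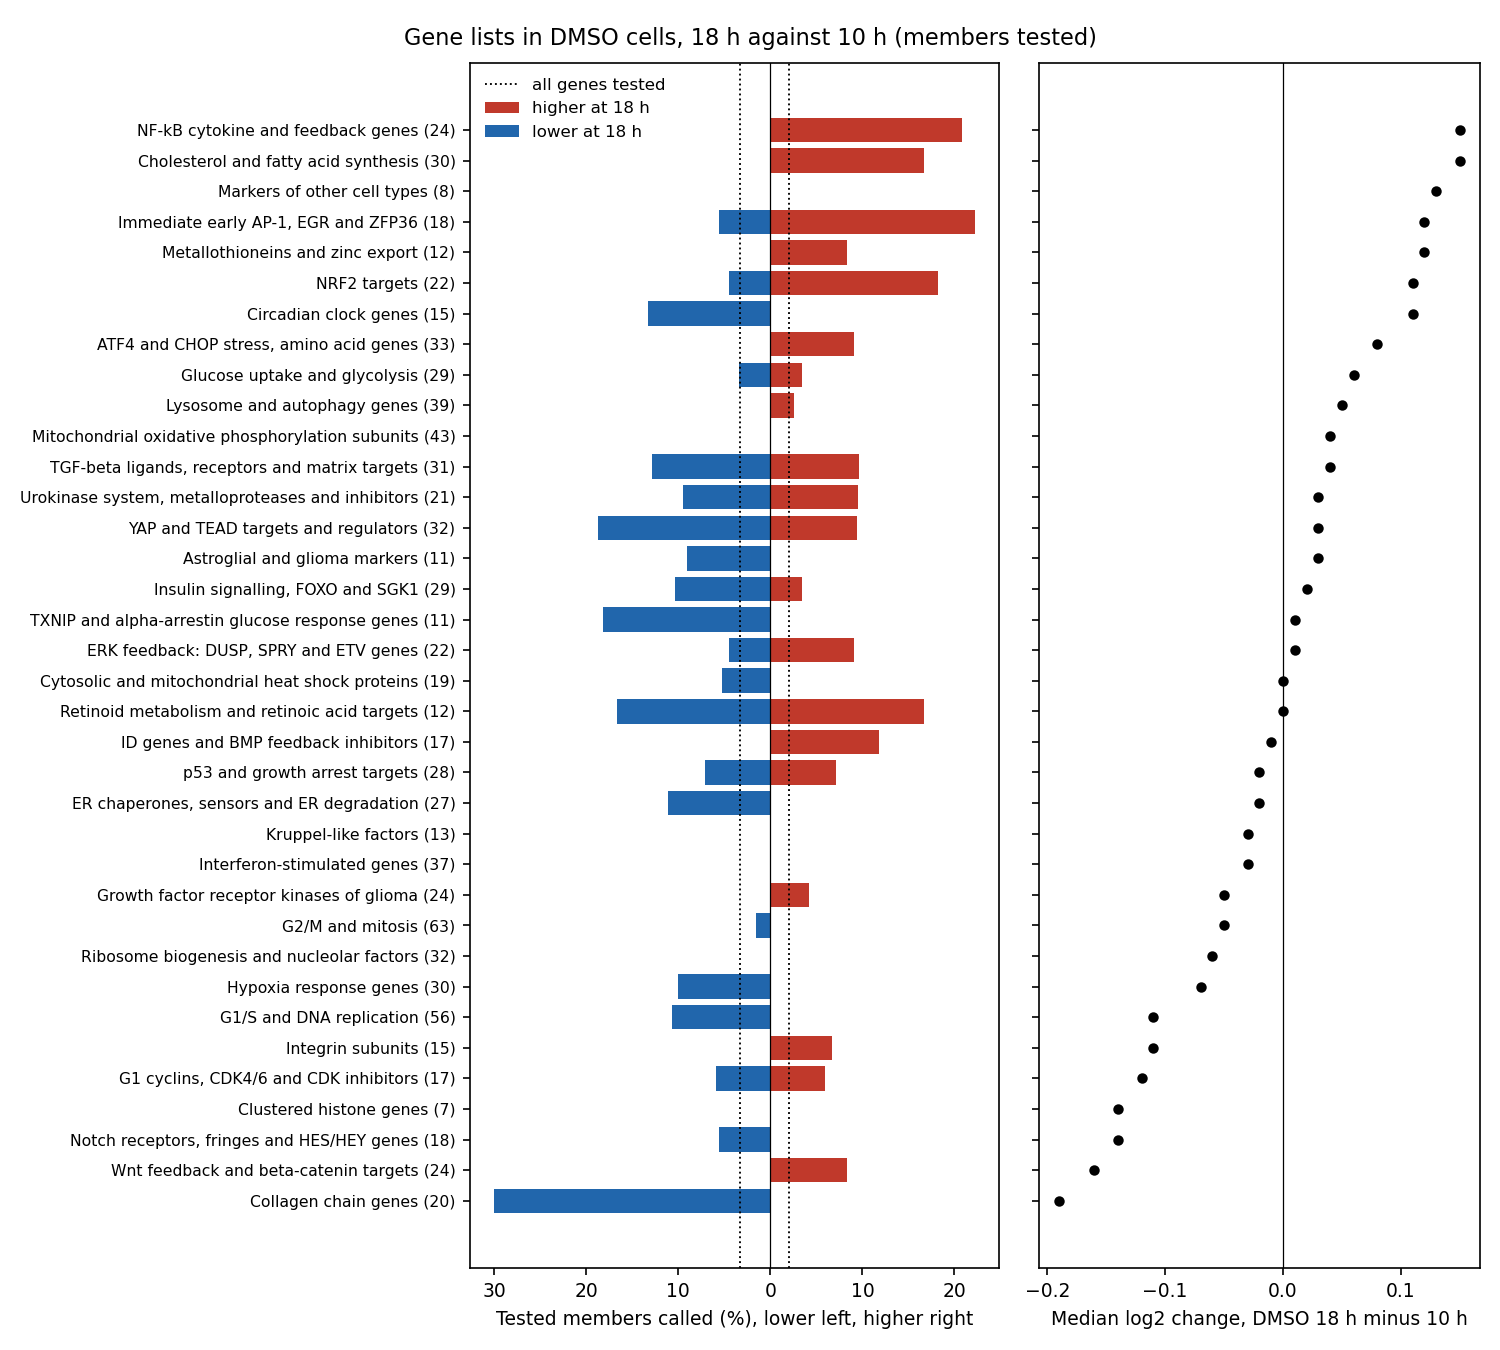
For each of 36 gene lists, with the number of tested members in brackets, the left panel gives the percent of tested members called higher (to the right) or lower (to the left) at 18 h and the right panel the median log2 change. Dotted lines mark the shares over all tested genes, 2.02% higher and 3.30% lower. Collagen genes had the lowest median and sterol and NF-kB genes the highest.

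The called collagen genes and the matrix genes VCAN and TNC were lower. Of 20 tested collagen chain genes 6 fell (30%, against 3.30% of all tested genes) and none rose, and the median change was -0.19. COL8A1 intensity was 907.9, 928.2 and 812.5 in the DMSO 18 h arrays and 1367.3, 1375.5 and 1194.9 in the DMSO 10 h arrays. The log2 change was -0.56 (SE 0.08, adjusted p = 0.000385). COL8A1, a short-chain collagen, did not overlap between the groups. COL5A2 fell (-0.54, adjusted p = 0.00114), as did COL11A1 (-0.32, adjusted p = 0.00939), both fibril-forming chains, and COL6A3 (-0.44, adjusted p = 0.0356). COL6A1 fell on its brightest probe set (-0.49, adjusted p = 0.0422), whereas the mean over its probe sets was 0.02 (adjusted p = 0.973). VCAN intensity was 1453.5, 1918.1 and 1558.1 in the DMSO 18 h arrays and 2931.4, 3132.5 and 2529.5 in the DMSO 10 h arrays. This is a log2 change of -0.80 (SE 0.11, adjusted p = 0.000156). VCAN, the large proteoglycan versican, and TNC, the glycoprotein tenascin C (-0.57, adjusted p = 0.000304), were lower in every 18 h array. An adjusted p under 0.05 was lost without at least 1 single array for COL11A1, COL6A3 and COL6A1, with the mean over probe sets for COL8A1 and TNC, and with replicate number as a block for COL6A1. It was also lost with no level filter for COL6A3 and COL6A1, with no intensity trend in limma for COL6A1, and with only the groups compared in the fit for COL6A3.

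TGF-beta ligand genes rose, unlike these matrix genes. TGFB1 rose by 0.55 (adjusted p = 0.0055), TGFB2 by 0.47 (adjusted p = 0.00677) and the signal transducer SMAD3 by 0.74 (adjusted p = 0.0332). The TGF-beta list had 3 higher and 4 lower genes of 31 tested (22.6%, against 5.32% of all tested genes) and a median of 0.04. In the BMP list the inhibitory SMAD6 (0.56, adjusted p = 0.00573) and ID1 (0.25, adjusted p = 0.0475) rose, 2 of 17 tested (11.8%). The YAP and TEAD list had 3 higher and 6 lower of 32 (28.1%). TGFB2 was among its higher genes too, so it is counted in both lists. CCN1, a matricellular YAP target, rose. CCN1 intensity was 9479.9, 11586.1 and 11007.8 in the DMSO 18 h arrays and 7216.4, 7202.0 and 8387.3 in the DMSO 10 h arrays. CCN1 thus changed by 0.49 on the log2 scale (SE 0.09, adjusted p = 0.00226). The coactivator WWTR1 rose by 0.38 (adjusted p = 0.0061), while NT5E, the ectonucleotidase CD73, fell (-0.74, adjusted p = 0.00072), as did NF2 (-0.49, adjusted p = 0.00595), the tumour suppressor merlin that acts upstream of YAP. Significance was lost without at least 1 single array for SMAD3 and ID1, with array medians subtracted for TGFB1, TGFB2, SMAD3, SMAD6, ID1, CCN1 and WWTR1, with the mean over probe sets for TGFB2, SMAD6, ID1, NT5E and NF2, and with replicate number as a block for ID1. Further losses came with no level filter or no intensity trend in limma for SMAD3 and ID1, and with only the groups compared in the fit or medians of the tested genes subtracted for ID1. ID1 has no further probe set, and its log2 change with the mean over probe sets stayed the same.

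Among 56 genes of the G1/S transition and DNA replication 6 fell (10.7%, against 3.30% of all tested genes) and none rose, with a median of -0.11. CCNE2 encodes cyclin E2, which drives entry into S phase. CCNE2 intensity was 2138.3, 2156.6 and 2258.1 in the DMSO 18 h arrays and 2986.5, 3185.0 and 3155.2 in the DMSO 10 h arrays. On the log2 scale CCNE2 differed by -0.51 (SE 0.07, adjusted p = 0.000258). The groups did not overlap. E2F7, a repressor of E2F targets, fell (-0.40, adjusted p = 0.00273), as did the helicase subunit GINS2 (-0.30, adjusted p = 0.00643) and the nucleases FEN1 (-0.33, adjusted p = 0.0105) and EXO1 (-0.39, adjusted p = 0.0192). E2F7 averaged 2930, 3851 and 2915 at 4, 10 and 18 h in DMSO, FEN1 3204, 4052 and 3218, and EXO1 1060, 1367 and 1037. E2F7, FEN1 and EXO1 were thus highest at 10 h and near their 4 h means at 18 h. CCNE2 and GINS2 ended below their 4 h means of 3162 and 2386. Of 63 G2/M and mitosis genes only the kinetochore gene NUF2 was called (-0.32, adjusted p = 0.0441), a share of 1.59% and a median of -0.05. NUF2 averaged 3131 at 4 h, 3742 at 10 h and 2996 at 18 h. Limma called none of 7 tested clustered histone genes (0 at an unadjusted p under 0.05). CCND1, cyclin D1, rose by 0.23 (adjusted p = 0.0441) and CDK2 fell (-0.29, adjusted p = 0.0361), although the mean over the CDK2 probe sets was 0.10 (adjusted p = 0.848). The call was lost without at least 1 single array for FEN1, EXO1, NUF2, CCND1 and CDK2, with array medians subtracted for NUF2, CCND1 and CDK2, with the mean over probe sets for E2F7, GINS2, FEN1 and NUF2, and with replicate number as a block for CCND1. Other losses came with no level filter or no intensity trend in limma for NUF2, CCND1 and CDK2, and with only the groups compared in the fit for CCND1. NUF2 has no further probe set, and its log2 change with the mean over probe sets stayed the same.

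The growth arrest list had 2 higher and 2 lower of 28 genes (14.3%, against 5.32% of all tested genes). PLK2 is a stress-induced polo-like kinase. PLK2 intensity was 6340.7, 6840.6 and 6400.4 in the DMSO 18 h arrays and 3496.8, 3316.3 and 3699.5 in the DMSO 10 h arrays. For PLK2 the fitted log2 change was 0.89 (SE 0.09, adjusted p = 3.33e-06). Every 18 h array was brighter than every 10 h array. GDF15, a stress-induced cytokine, rose by 0.53 (adjusted p = 0.023), and GADD45A (-0.27, adjusted p = 0.0134) and TIGAR (-0.31, adjusted p = 0.0406) fell. TIGAR averaged 1374 at 4 h, 1761 at 10 h and 1413 at 18 h. Calls did not hold without at least 1 single array for GDF15, GADD45A and TIGAR, with array medians subtracted for GDF15 and TIGAR, and with the mean over probe sets for GDF15. More were lost with quantile normalization, no level filter or no intensity trend in limma for TIGAR, and with only the groups compared in the fit for GDF15 and TIGAR.

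Of 15 tested circadian clock genes 2 fell (13.3%, against 3.30% of all tested genes) and none rose, and the median was 0.11. CRY1, a repressor of the clock's activators, was one. CRY1 intensity was 1544.9, 1512.1 and 1579.1 in the DMSO 18 h arrays and 2219.0, 2314.6 and 2619.3 in the DMSO 10 h arrays. The log2 change was -0.62 (SE 0.10, adjusted p = 0.000523). Its arrays did not overlap. NFIL3, a repressor of clock output, fell (-0.32, adjusted p = 0.028). The core activators BMAL1 (-0.17, adjusted p = 0.628), CLOCK (0.14, adjusted p = 0.356) and NPAS2 (0.11, adjusted p = 0.887) were not called. Neither were the repressors PER2 (-0.39, adjusted p = 0.177) and PER3 (-0.39, adjusted p = 0.315), nor NR1D2 (0.24, adjusted p = 0.368). The output factors DBP (-0.05) and TEF (-0.08), the repressors BHLHE40 (0.18), BHLHE41 (0.22) and CIART (0.24) and the kinases CSNK1D (0.22) and CSNK1E (0.19) had adjusted p-values of 0.115 or more. The 3 times of the series are too few to show a rhythm. An adjusted p under 0.05 was lost without at least 1 single array for NFIL3. It was also lost with only the groups compared in the fit for NFIL3.

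Stress lists gave small and divided changes. In the ATF4 and amino acid list 3 of 33 genes rose (9.09%, against 2.02% of all tested genes) and none fell, with a median of 0.08. DDIT4, an inhibitor of mTORC1, rose by 0.62 (adjusted p = 0.0052), PHGDH, the entry enzyme of serine synthesis, by 0.39 (adjusted p = 0.00677) and the lipoprotein receptor VLDLR by 0.32 (adjusted p = 0.0453). In the endoplasmic reticulum list 3 of 27 fell (11.1%, against 3.30% of all tested genes). They were the co-chaperone DNAJC3 (-0.47, adjusted p = 0.00554) and the stress sensors EIF2AK3 (-0.48, adjusted p = 0.0348) and ATF6 (-0.40, adjusted p = 0.0364). Another ATF6 probe set of similar level went the other way (0.62, with 1070 in DMSO 18 h and 703 in DMSO 10 h). Its adjusted p was 0.0832 with every probe set tested on its own. The remaining ATF6 probe sets gave -0.20 and -0.42. Of 19 heat shock genes (5.26% called) the co-chaperone BAG3 fell (-0.36, adjusted p = 0.00565). Its mean was 9292 at 10 h and 7239 at 18 h, near the 7165 of 4 h. Of 22 NRF2 targets 22.7% were called, against 5.32% of all tested genes. Among them 4 rose, the reductase AKR1B10 by 0.61 (adjusted p = 0.00733), the exporter ABCC1 by 0.38 (adjusted p = 0.0126), NQO1 by 0.27 (adjusted p = 0.035) and TKT as above, whereas HMOX1, heme oxygenase 1, fell. HMOX1 intensity was 1977.7, 2063.3 and 1930.4 in the DMSO 18 h arrays and 2818.3, 2843.1 and 3688.2 in the DMSO 10 h arrays. This is a log2 change of -0.63 (SE 0.12, adjusted p = 0.00445). HMOX1 was lower in every 18 h array, and its 4 h mean of 1641 was also below its 10 h mean of 3117. Of 12 metallothionein and zinc genes (8.33% called) MT1H rose by 0.50 (adjusted p = 0.0308). Significance was lost without at least 1 single array for VLDLR, EIF2AK3, ATF6, ABCC1, NQO1 and MT1H, with array medians subtracted for DDIT4, PHGDH, VLDLR, ABCC1, NQO1 and MT1H, with the mean over probe sets for VLDLR, DNAJC3, EIF2AK3, ATF6, ABCC1 and MT1H, and with replicate number as a block for VLDLR. Further losses came with no level filter or no intensity trend in limma for VLDLR, EIF2AK3, ATF6, NQO1 and MT1H, with only the groups compared in the fit for VLDLR and MT1H, and with medians of the tested genes subtracted for NQO1. VLDLR and MT1H have no further probe set, and their log2 changes with the mean over probe sets stayed the same.

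FABP7, the brain fatty acid binding protein of radial glia and glioma, was the 1 call among 11 tested glial markers (9.09%, against 5.32% of all tested genes). FABP7 intensity was 2301.2, 2346.8 and 2775.7 in the DMSO 18 h arrays and 4595.7, 4467.5 and 4309.0 in the DMSO 10 h arrays. FABP7 thus changed by -0.85 on the log2 scale (SE 0.10, adjusted p = 2.84e-05). All 18 h arrays were lower. ALDH1A3 makes retinoic acid and is a marker of mesenchymal glioma cells. ALDH1A3 intensity was 1473.9, 1526.6 and 1389.6 in the DMSO 18 h arrays and 2863.4, 2912.6 and 2646.2 in the DMSO 10 h arrays. On the log2 scale ALDH1A3 differed by -0.93 (SE 0.09, adjusted p = 1.93e-06). It did not overlap between the groups and averaged 7961 ± 432 at 4 h (SD, n = 3). The retinoid list had 2 higher and 2 lower of 12 (33.3%). RARB, a retinoic acid receptor, was higher by 0.50 (adjusted p = 0.048) and the retinal reductase DHRS3 by 1.82 (adjusted p = 0.0365). RDH10, a retinol dehydrogenase, was lower (-0.47, adjusted p = 0.0192). RDH10 averaged 557 at 4 h, 976.5 at 10 h and 702 at 18 h. Of 15 integrin subunits (6.67% called) ITGB5 rose by 0.51 (adjusted p = 0.00013). Of 24 growth factor receptor genes and ligands (4.17% called) TGFA rose by 0.40 (adjusted p = 0.00745). Of 39 lysosome and autophagy genes (2.56% called) ATP6V0A1, a proton pump subunit, rose by 0.71 (adjusted p = 0.00679). In the Wnt list MYC and CCND1 were the 2 calls of 24 (8.33%), and the median was -0.16. In the Notch list the ligand DLL1 fell (-1.68, adjusted p = 0.00411), 1 of 18 (5.56%). Limma called no member among 43 oxidative phosphorylation subunits (6 at an unadjusted p under 0.05), 32 ribosome biogenesis factors (4) or 37 interferon-stimulated genes (4). The call was lost without at least 1 single array for RARB, DHRS3 and RDH10, with array medians subtracted for RARB and TGFA, with the mean over probe sets for FABP7, ALDH1A3, RARB, DHRS3, RDH10, ITGB5, TGFA and DLL1, and with replicate number as a block for RARB. Other losses came with no level filter, no intensity trend in limma or an offset of 1 for RARB and DHRS3, and with medians of the tested genes subtracted for RARB. DHRS3 has no further probe set, and its log2 change with the mean over probe sets stayed the same.

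Among the other large falls, DIRAS3 and SCG2 were bright. DIRAS3 intensity was 345.4, 367.9 and 436.8 in the DMSO 18 h arrays and 1091.2, 877.4 and 802.7 in the DMSO 10 h arrays. For DIRAS3 the fitted log2 change was -1.23 (SE 0.12, adjusted p = 3.39e-06). SCG2 intensity was 1544.2, 1530.3 and 1362.4 in the DMSO 18 h arrays and 3615.5, 2979.7 and 2883.5 in the DMSO 10 h arrays. The log2 change was -1.08 (SE 0.09, adjusted p = 2.98e-07). Both genes were lower in every 18 h array, which the naming rule required. They stood higher at 4 h, at 1977 ± 57.1 for DIRAS3 and 5989 ± 141 for SCG2 (SD, n = 3 each). PRSS12 fell (-1.02, adjusted p = 2.84e-05). DHRS2, a mitochondrial short-chain reductase, rose by 1.07 (adjusted p = 0.00012) and SAMD11 by 1.16 (adjusted p = 0.00131). Of the dimmer genes, SIMC1P1, a pseudogene whose probes may also read related transcripts, had the largest fall (-2.12, adjusted p = 9.91e-05). RYR2, a calcium release channel, fell (-1.53, adjusted p = 0.00798), as did CFAP95 (-1.33, adjusted p = 0.00183) and the fatty acid elongase ELOVL7 (-1.25, adjusted p = 0.00273). The rises of RNF39, ADM2, CASP10, B3GNT3, ASPG, MAPRE3, IGLL3P and AHRR, of 1.16 to 1.74, and the falls of TOMM40L, TAMALIN, CD82, IMMP2L, PIK3C2B, RELT and ZSCAN20, of -1.02 to -1.71, each lost the call without at least 1 array. All of these but IGLL3P, TOMM40L and TAMALIN also lost it in at least 1 other setting of the processing. Calls did not hold with the mean over probe sets for SIMC1P1, RYR2 and CFAP95. More were lost with only the groups compared in the fit for RYR2.

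The same interval in enzastaurin cells, measured on other arrays, gave 1369 calls (11.1%), 671 higher (5.42%) and 698 lower (5.64%). With array medians subtracted the enzastaurin calls became 234 higher and 968 lower. Of the 658 DMSO calls, 529 (80.4%) had the same sign in enzastaurin cells, against 62.5% of all tested genes. Calls in the same direction in both numbered 239, which is 36.3% of the DMSO calls and 17.5% of the enzastaurin calls, and 18 were called in opposite directions. Across all genes the changes had r = 0.282, a description over genes that are not independent. The difference of the changes, DMSO minus enzastaurin, was called for 276 genes (2.23%), 112 higher (0.905%) and 164 lower (1.33%), and 95 of these were also DMSO calls. Of the 401 DMSO calls not called in enzastaurin cells, 60 passed this test of the difference. With array medians subtracted 65 differences were called. EGR1 rose by 2.38 in enzastaurin cells, SCG2 changed there by -0.99, DIRAS3 by -1.19, ARRDC4 by -0.72 and MSMO1 by 0.65. The difference was not called for any of these 5 genes.

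**Figure D4:**
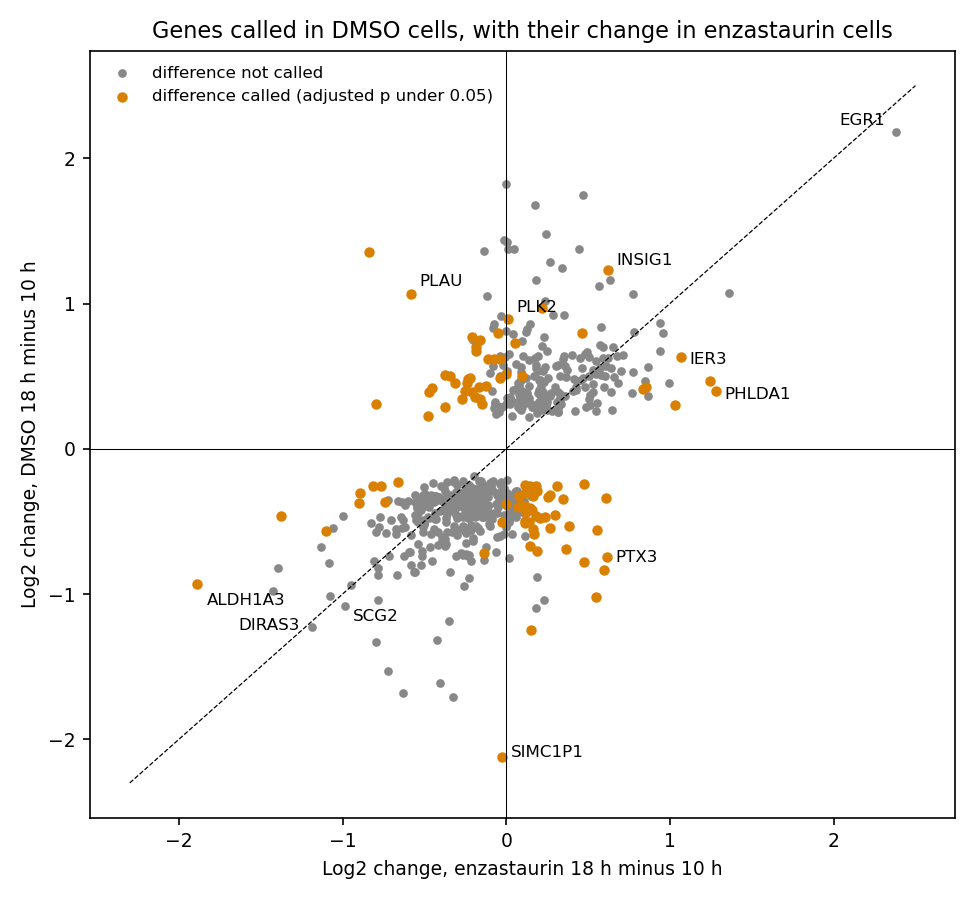
Each point is 1 of the 658 genes called in DMSO cells, with its log2 change in enzastaurin cells (18 h minus 10 h) on the x axis and in DMSO cells on the y axis; the dashed line marks equal changes and the 95 orange genes had a called difference. EGR1, SCG2 and DIRAS3 lie near the line, and PLAU (upper left) and PTX3 (lower right) changed in opposite directions.

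Urokinase changed in opposite directions. PLAU was 1475.4, 1283.3 and 1579.6 in enzastaurin 18 h arrays and 2291.1, 2144.1 and 2053.6 in enzastaurin 10 h arrays, a log2 change of -0.58 (adjusted p = 5.61e-05), and its difference was 1.65 (SE 0.11, adjusted p = 4.68e-08). The 10 h levels of the 2 treatments were close, and the DMSO cells were high and the enzastaurin cells low at 18 h. CCND1 rose in DMSO cells and fell in enzastaurin cells (log2 change -0.48, adjusted p = 4.6e-05), with a difference of 0.70 (adjusted p = 0.00021). Unlike PLAU, its mean levels were apart at 10 h (2833 in DMSO, 4484 in enzastaurin) and close at 18 h (3321 in DMSO, 3220 in enzastaurin). PLK2 (0.01), ITGB5 (0.00), DDIT4 (-0.11) and CCN1 (-0.04) rose in DMSO and were not called in enzastaurin, and their differences of 0.89, 0.51, 0.73 and 0.53 were called. DDIT4 was already bright in enzastaurin 10 h, with a mean of 6622 against 1854 in DMSO 10 h and 2857 in DMSO 18 h. ALDH1A3 fell in both and by more in enzastaurin cells (-1.89, difference 0.96, adjusted p = 0.00021), as did COL8A1 (-1.10, difference 0.54, adjusted p = 0.0188). IER5 fell in DMSO and rose by 0.48 in enzastaurin (adjusted p = 2.37e-05), and PHLDA1 and IER3 rose more in enzastaurin, by 1.28 and 1.07. CCNE2 and E2F7 fell in DMSO and were at -0.03 and 0.07 in enzastaurin, with differences of -0.48 (adjusted p = 0.0144) and -0.47 (adjusted p = 0.0175). Of 63 mitosis genes 1 was called lower in DMSO and 28 in enzastaurin, against 3.30% and 5.64% of all tested genes. The difference was called for 5 of them, against 2.23% of all tested genes. In the Wnt list the difference was called lower for 7 of 24 members, against 1.33% of all tested genes. NKD1, a feedback inhibitor, was among them (-1.74, adjusted p = 0.00825). The difference lost its call without at least 1 single array for DDIT4, CCN1, COL8A1, IER3 and E2F7, with array medians subtracted for ITGB5, DDIT4, CCN1, COL8A1, PHLDA1, IER3, CCNE2 and E2F7, and with the mean over probe sets for ITGB5, DDIT4, ALDH1A3, COL8A1 and E2F7. It was also lost with no level filter for DDIT4, with no intensity trend in limma for DDIT4, CCN1, IER3 and E2F7, and with only the groups compared in the fit for COL8A1. DDIT4 has no further probe set, so the mean over probe sets left the size of its difference as it was.

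**Figure D5:**
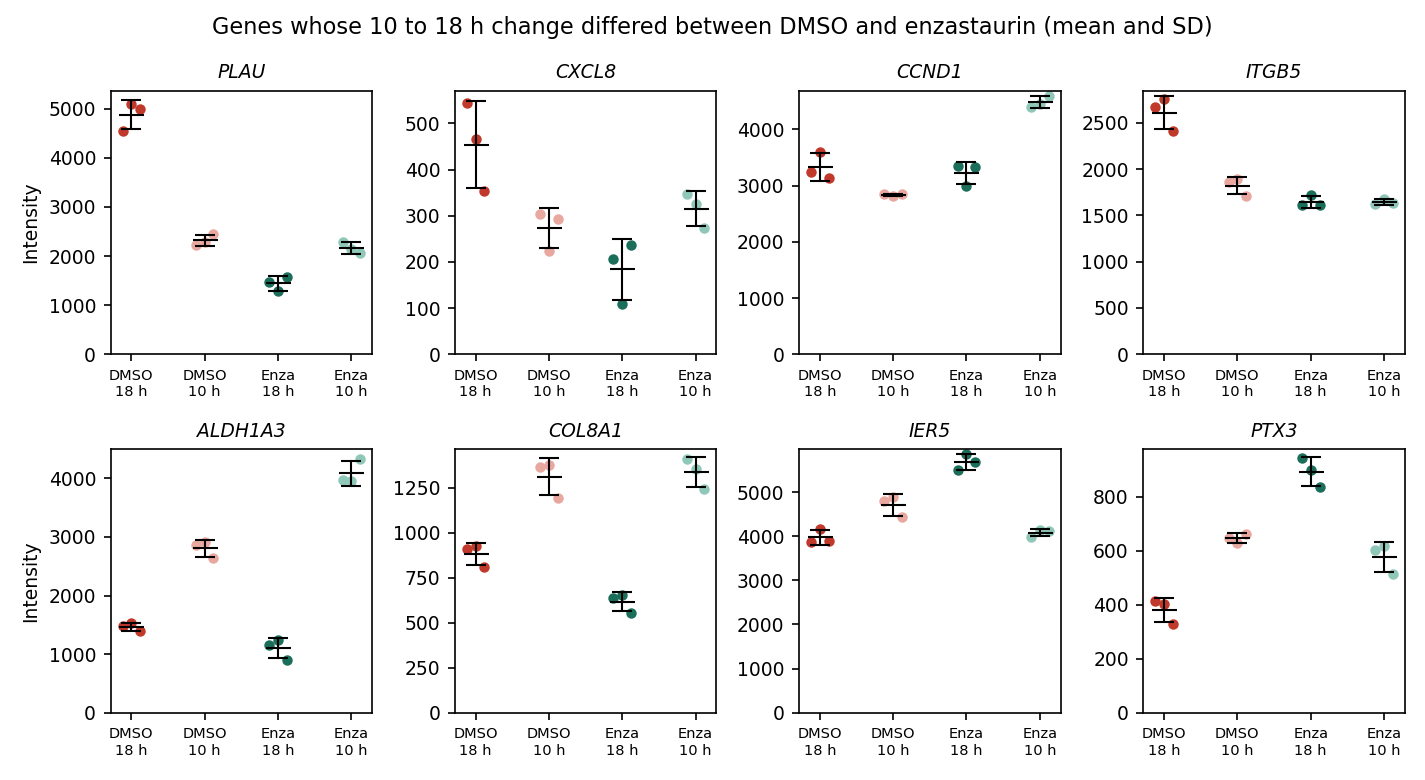
Intensities of 8 genes in the 3 arrays of each of 4 groups (Enza is enzastaurin); dots are arrays, the wide mark is the mean and the bars are the SD. PLAU and CXCL8 were high in DMSO 18 h and low in enzastaurin 18 h, and PTX3 and IER5 were low in DMSO 18 h and high in enzastaurin 18 h.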

How the data were processed

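The deposited values are intensities on a linear scale, made by the authors with GCOS 1.2 per the submitters' processing notes, and the 2% trimmed mean was nearly the same in every array, so they had been scaled. The genome build and annotation of that step are not given in the sources used here. No detection calls or scan files were used. The number of arrays limits the precision. Of 54613 probe sets 41091 had 1 gene symbol, 1801 several and 11721 none; only the first were used, and 41037 were matched by gene identifier to RefSeq names (GRCh38.p14). For each of 19775 genes the brightest probe set was kept. Values were analysed as log2(intensity + 16), with 1 mean per group over the 18 arrays, in limma 3.58.1 (R 4.3.3) with a trend in eBayes, and called at a Benjamini-Hochberg adjusted p under 0.05. Fold changes on this scale understate those of dim genes. The pipeline was tested on simulated data. Genes were named by rule: the 15 called genes with the largest rise and the 15 with the largest fall whose arrays did not overlap and whose brighter group reached the median level, up to 5 called members of each list (the 2 with the smallest adjusted p where fewer than 2 were called), every tested clock gene, MYC, and the 8 largest differences each way. Members, lists and rule were chosen with earlier results of these data known. Replicate numbers did not pair the DMSO arrays, with correlations of same-number deviations of -0.0334 to 0.0055. In enzastaurin cells these correlations were 0.0338 to 0.186. The alternatives are listed with their effects in the closing section. Plots came from matplotlib 3.10.9 under Python 3.11.15.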

Additional observations from a re-analysis of the deposited data

Results flagged for a closer look

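The results below had a 10 to 18 h change that differed between DMSO and enzastaurin cells by limma's test of the difference itself, over 3 arrays per group; values are log2 differences, DMSO change minus enzastaurin change. They cover the 41 named genes with an adjusted p under 0.05, and 2.23% of all tested genes passed this test. No test for an outlying value of a single gene was run within groups of 3 arrays; the calls without single arrays are given above.

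Among list members the DMSO change was the more positive for INSIG1 (0.61), PLAU (1.65), CCND1 (0.70), PLK2 (0.89), CCN1 (0.53), COL8A1 (0.54), PLAT (0.71), DDIT4 (0.73), ITGB5 (0.51) and ALDH1A3 (0.96). It was the more negative for CCNE2 (-0.48), E2F7 (-0.47), FEN1 (-0.40), H2BC12 (-0.96), IER3 (-0.43), IER5 (-0.72) and PHLDA1 (-0.89). The adjusted p was smallest for PLAU (4.68e-08), the urokinase gene, and largest for FEN1 (0.0387), a nuclease of DNA replication. A more positive change need not mean a higher level. INSIG1 averaged 2100 in DMSO 18 h and 884.6 in DMSO 10 h, against 7402 in enzastaurin 18 h and 4804 in enzastaurin 10 h. Of 30 sterol genes 14 were called higher in enzastaurin cells and 5 in DMSO, against 5.42% and 2.02% of all tested genes.

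Among the largest differences by rule, the positive ones were ASPG (2.19), ELFN2 (1.79), CXCL8 (1.48), THBS1 (1.14), CPA4 (1.11), ALPK2 (1.06) and PRSS35 (0.99). THBS1, the matrix glycoprotein thrombospondin 1, was at -0.04 in DMSO cells (adjusted p = 0.873) and fell in enzastaurin cells (-1.18, adjusted p = 2.54e-07). Its dimmer probe sets ranged in DMSO cells from -0.69 (adjusted p = 0.0141) to 0.82 (adjusted p = 0.143), with every probe set tested on its own. The chemokine CXCL8 was at 0.69 in DMSO cells (adjusted p = 0.0654) and fell in enzastaurin cells (-0.79, adjusted p = 0.0208). The negative ones were SIMC1P1 (-2.09), ELOVL7 (-1.40), ZSCAN20 (-1.57), PCDHAC1 (-2.45), GPRC5B (-2.11), NKD1 (-1.74), LMO2 (-1.54) and FAM222A (-1.43). NKD1 was at 0.14 in DMSO cells (adjusted p = 0.807) and rose in enzastaurin cells (1.89, adjusted p = 3.13e-05). Further NKD1 probe sets gave 0.91 (178 in DMSO 18 h and 88.8 in DMSO 10 h) and 0.50 in DMSO cells.

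Among genes chosen after their values were seen, the difference was positive for SYTL5 (0.34), MYADM (0.85), EMP1 (0.68), TNS3 (0.89), DIO2 (0.85) and HNMT (0.91) and negative for PTX3 (-1.36), CD55 (-0.58) and GCH1 (-0.76).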

How the results depend on the processing

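The 658 calls in DMSO cells became 437 with array medians subtracted, 345 with each gene's probe sets averaged and 39 with a 2-fold minimum, and stayed between 463 and 888 with an offset of 1 or 64, no level filter, the brightest 25% of probe sets, quantile normalization, array weights, no trend, every probe set on its own, only the groups compared, or the medians of tested genes subtracted (an alternative chosen after seeing the data). Leaving out single arrays gave 294 to 588 calls, with 294 without DMSO 18 h replicate 1, 319 without DMSO 10 h replicate 2, 357 without DMSO 18 h replicate 3 and 382 without DMSO 10 h replicate 1. With array medians subtracted the split moved to 62 higher and 375 lower in DMSO cells and to 234 higher and 968 lower in enzastaurin cells. In enzastaurin cells the 1369 calls became 846 with the mean over probe sets, 815 with only the groups compared, 80 with a 2-fold minimum and 896 to 1264 without single arrays (896 without enzastaurin 18 h replicate 3, 903 without enzastaurin 10 h replicate 2). The 276 differences became 65 with array medians subtracted, 130 with the mean over probe sets, 38 with a 2-fold minimum and 181 to 286 without single arrays (181 without DMSO 10 h replicate 2). The replicate block gave 658, 1364 and 271 calls, and moved no count by over 1.5 times. With the mean over probe sets CDK2 (0.10), COL6A1 (0.02) and HK2 (0.40) changed sign; the cause was not tested. Of the 658 calls 393 were kept with array medians subtracted, 267 with the mean over probe sets, and 91 (30 higher, 61 lower) in both and without each single array. Of 165 named genes 123 were called in DMSO cells, and 69 of these kept their call without each single array. Dim genes have the widest error, and signal over background is not known without detection calls.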

Other observations

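Genes outside the naming rule also changed, and those given here were chosen after their values were seen. The falls of this paragraph are of cell surface and secreted products, of which others, PLAU and LIF among them, rose. The enzyme gene GCH1, given below, fell as well. CXCL14, a chemokine, was 372.2, 341.4 and 402.7 in the DMSO 18 h arrays and 730.9, 729.4 and 718.7 in the DMSO 10 h arrays, a log2 change of -0.94 (adjusted p = 5.62e-05), and it changed by -0.95 in enzastaurin cells. NTM, an adhesion molecule of neurons, fell (-0.82, adjusted p = 3.69e-05), as did CNTN1, a contactin (-0.67, adjusted p = 0.00142), S1PR1, a sphingosine 1-phosphate receptor (-0.80, adjusted p = 0.000627), the proteoglycan SDC4 (-0.55, adjusted p = 9.39e-05) and CD55, an inhibitor of complement (-0.72, adjusted p = 0.000336). All 3 arrays of 18 h lay below all 3 of 10 h in each of these 6 genes. Nearly all called genes were separated and 14.1% of all tested genes lay lower in this way, so the separation adds no support. The CXCL14 and NTM calls were lost with the mean over probe sets.

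Rises included SYTL5, a synaptotagmin-like protein of vesicle traffic, at 6762.2, 6767.2 and 7061.6 in the DMSO 18 h arrays and 3852.5, 3926.1 and 4026.3 in the DMSO 10 h arrays (0.80, adjusted p = 2.98e-08). The membrane proteins MYADM (0.80, adjusted p = 0.000297) and EMP1 (0.73, adjusted p = 0.000156), the focal adhesion protein TNS3 (0.70, adjusted p = 4.44e-05), the deiodinase DIO2 (0.50, adjusted p = 0.000258) and the histamine-inactivating enzyme HNMT (0.75, adjusted p = 0.000374) also rose. The EMP1, TNS3 and HNMT calls were lost with the mean over probe sets. PTX3, a pentraxin of innate immunity, was 412.6, 401.8 and 328.1 in the DMSO 18 h arrays and 648.2, 628.4 and 663.0 in the DMSO 10 h arrays, against 942.9, 898.6 and 837.7 in enzastaurin 18 h and 601.3, 617.0 and 513.7 in enzastaurin 10 h arrays. It fell in DMSO cells (-0.75, adjusted p = 0.000359) and rose in enzastaurin cells (0.62, adjusted p = 0.000828). GCH1, the entry enzyme of tetrahydrobiopterin synthesis, fell in DMSO cells (-0.59, adjusted p = 0.000186) and was at 0.17 in enzastaurin cells (adjusted p = 0.196).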
